A study of Homo sapiens with 6 samples.

Results

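The 47 genes described here encode the proteins that mark, license and fire the origins of DNA replication and that build and protect the replication fork. They were taken as a list of named genes, mapped from the Ensembl identifiers of the deposited tables, and all 47 were found among 60658 identifiers. RNA was sequenced from C4-2B MDVR cells, an enzalutamide-resistant derivative of the C4-2B line of prostate cancer, and from CWR22Rv1 cells, a castration-resistant prostate cancer line. Cells of each line were treated for 48 h with vehicle (DMSO), with 10 µM apoptozole (APO) or with 10 µM VER155008 (VER), both of which inhibit the ATPase activity of the chaperone HSP70. Enzalutamide, an androgen receptor antagonist, was part of the C4-2B MDVR culture medium at 20 µM, and CWR22Rv1 cells were grown without it. Whether it stayed in the medium during the 48 h is not stated in the sources used here, and differences between the lines and the presence of enzalutamide cannot be told apart. Every one of the 6 conditions was sequenced as a single library without replicates, so no difference below has an error or a test. The titles and the methods name C4-2B MDVR, although the source field of those libraries reads LNCaP-C4-2B and their cell type reads parental.

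Replication starts at origins that are bound by the origin recognition complex. In G1 phase CDC6 and CDT1 load rings of the MCM helicase there, and geminin (GMNN) holds CDT1 back once S phase has begun. The kinase CDC7 with DBF4, together with MCM10, CDC45 and the GINS complex, then turns the loaded rings into moving helicases, behind which polymerases alpha, delta and epsilon copy the strands. Many of these genes are transcribed around the start of S phase under the control of E2F transcription factors, and proliferating tumour cells express them at high levels.

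Levels are given in FPKM, fragments scaled by transcript length and by library, as deposited, so they can be set side by side between genes. Changes are on the scale of log2(FPKM + 0.1), 1 library minus another. Folds are taken from the same scale. Both slightly understate the change of low genes, so a fold need not equal the ratio of the levels printed beside it. A gene is called lower or higher past 1.2-fold, the threshold the study used, and past 2-fold as a stricter count. Because RNA was taken from whole cultures, fewer cells in S phase and less of these RNAs per cell cannot be told apart.

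Nearly the whole replication machinery was lower in both lines with either inhibitor. With APO, 43 of the 47 genes were lower past 1.2-fold in C4-2B MDVR and 2 were higher, against 35.4% lower and 37.7% higher of all 20122 genes compared. With VER the counts in this line were 46 lower and 0 higher, against 34.9% and 35.6% of all genes. In CWR22Rv1, APO gave 43 lower and 2 higher, where 39.2% and 35.6% of 21608 genes were so called, and VER gave 44 lower and 1 higher, where 32.3% and 32.1% were so called. The comparisons of APO and of VER within a line share a DMSO library, so an error in that library would move both.

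The size of the difference set the 4 treatments apart. The median log2 fold change of the 47 genes was -1.29 under APO and -1.90 under VER in C4-2B MDVR, and -1.14 with APO and -0.73 with VER in CWR22Rv1. The medians over all genes compared lay between -0.01 and 0.00. Past 2-fold, 27 of the 47 genes were lower under APO and 36 under VER in C4-2B MDVR, where 13.3% of all genes were lower with APO and 13.3% with VER. In CWR22Rv1 the counts were 25 with APO and 10 with VER, against 16.8% and 8.92% of all genes. VER was thus the larger change in C4-2B MDVR and APO in CWR22Rv1. A list of 10 widely used reference genes had medians of -0.10 and -0.41 in C4-2B MDVR and -0.46 and -0.34 in CWR22Rv1 in the same order. Past 1.2-fold, 4, 6, 6 and 5 of the 10 were lower and 3, 1, 3 and 2 higher, and past 2-fold 0 were lower. With VER in CWR22Rv1 they ranged from -0.83 (ACTB) to 0.63 (B2M), a range that includes the median of the 47 genes.

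**Figure D1:**
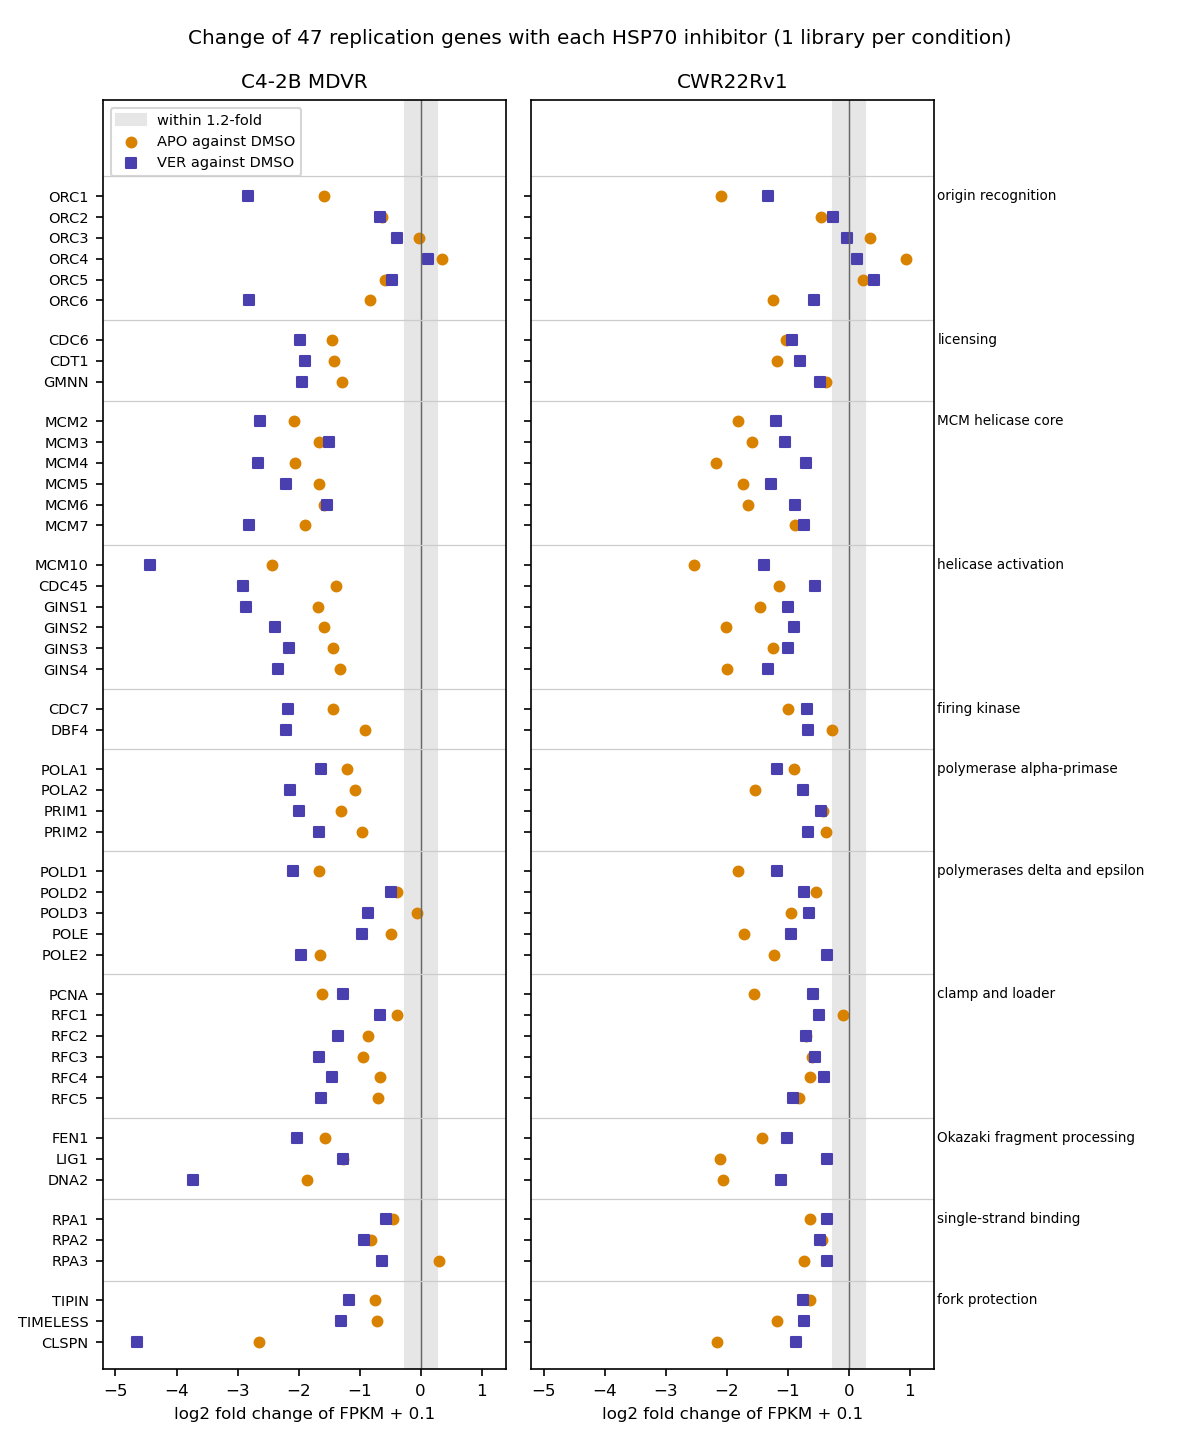
Log2 fold change of FPKM + 0.1 of each of the 47 replication genes against DMSO of the same line (horizontal axis), ordered by role, in C4-2B MDVR (left) and CWR22Rv1 (right). Circles are APO, squares are VER, and the grey band is a change within 1.2-fold. Nearly all points lie left of the band, the VER points lie mostly left of the APO points in C4-2B MDVR and mostly right of them in CWR22Rv1, and ORC3 and ORC4 lie near or right of the band in both panels.

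With DMSO all 47 genes were readily detected. Their median was 31.8 FPKM in C4-2B MDVR, with a range from 6.04 (ORC3) to 175 (POLD2), and 34.2 FPKM in CWR22Rv1, with a range from 7.61 (ORC4) to 208 (PCNA). In both lines the 5 highest genes were PCNA, POLD2, MCM7, MCM4 and MCM2. The median was 12.7 FPKM under APO and 9.58 under VER in C4-2B MDVR, and 15.3 and 24.1 in CWR22Rv1. The DMSO library held the highest value of 45 of the genes in C4-2B MDVR and of 44 in CWR22Rv1. The lowest value lay in the VER library for 41 genes in C4-2B MDVR, and in the APO library for 33 genes in CWR22Rv1. The number of genes below 5 FPKM went from 0 under DMSO to 9 under APO and 17 under VER in C4-2B MDVR, and to 5 and 2 in CWR22Rv1. All 47 genes stayed above 0.1 FPKM in all 6 libraries, so the filter on low values removed none.

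The files bear on transcription only through RNA levels, but the promoters of these genes can be read beside them. RefSeq promoter windows on GRCh38.p14, each from 250 bases before to 50 bases after a start site, were present for 40 of the 47 genes. DNA2, GINS4, MCM4, MCM5, POLD3, RPA2 and RPA3 had none. The windows were searched on both strands for 4 words of the E2F site, TTTCCCGC, TTTCGCGC, TTTGGCGC and TTTGCCGC, whose reverse complements are GCGGGAAA, GCGCGAAA, GCGCCAAA and GCGGCAAA. Of the 40 genes, 21 (52.5%) held at least 1 word, against 3.99% of 27305 genes of the table and 6.47% of the 10967 of them above 1 FPKM in these cells. Counted by window, 3.31% of 35116 windows held a word. With TTTCCCGC and TTTGGCGC alone, 19 of the 40 genes (47.5%) and 2.75% of all genes did.

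Stretches of 100 bases are printed for 6 genes with a word, chosen from the licensing factors, the helicase, the polymerase and the clamp, and for 2 without one, MCM10, whose RNA was among the most reduced, and ORC5, whose RNA was not reduced in CWR22Rv1. They run 5′ to 3′ on the strand of the gene, and capitals mark the E2F words. In MCM6 the words on the 2 strands overlap, so each capital run there holds TTTGGCGC and GCGCGAAA. The stretches end at the base before the start site, except that of MCM6, which covers the bases from -165 to -66 relative to it. Positions on GRCh38.p14 are chr2:135876509-135876608 (minus strand) for MCM6, chr16:88803689-88803788 (plus) for CDT1, chr6:24775313-24775412 (plus) for GMNN, chr20:5126623-5126722 (minus) for PCNA, chr11:65261862-65261961 (plus) for POLA2, chr16:85688955-85689054 (minus) for GINS2, chr10:13161458-13161557 (plus) for MCM10 and chr7:104208014-104208113 (minus) for ORC5. GMNN and PCNA each have 2 windows in the table, of which 1 is shown.
MCM6: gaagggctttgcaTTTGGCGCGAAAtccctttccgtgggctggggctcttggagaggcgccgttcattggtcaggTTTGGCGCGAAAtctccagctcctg
CDT1: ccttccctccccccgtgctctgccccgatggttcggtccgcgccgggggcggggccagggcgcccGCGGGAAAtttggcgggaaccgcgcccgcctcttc
GMNN: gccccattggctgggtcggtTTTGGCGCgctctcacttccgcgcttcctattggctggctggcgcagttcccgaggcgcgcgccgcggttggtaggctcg
PCNA: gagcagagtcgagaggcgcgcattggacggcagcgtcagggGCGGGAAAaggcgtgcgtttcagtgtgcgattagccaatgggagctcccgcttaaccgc
POLA2: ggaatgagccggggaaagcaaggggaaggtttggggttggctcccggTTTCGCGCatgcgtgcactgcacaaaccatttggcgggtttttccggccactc
GINS2: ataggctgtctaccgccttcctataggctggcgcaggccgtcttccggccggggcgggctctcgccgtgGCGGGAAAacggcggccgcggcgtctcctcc
MCM10: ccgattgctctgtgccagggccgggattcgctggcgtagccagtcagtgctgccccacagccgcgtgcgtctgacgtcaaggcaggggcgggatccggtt
ORC5: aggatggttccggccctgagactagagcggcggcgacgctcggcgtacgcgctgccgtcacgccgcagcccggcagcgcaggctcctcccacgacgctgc

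In several other genes a word lay close to the start site, with distances counted to its first base. CLSPN held GCGGGAAA 5 bases before the start, RFC3 held it 55 bases before, and CDC7 held a word on each strand, at 68 and 34 bases before. POLE and POLE2 held GCGCCAAA at 18 and 5 bases before. Genes of the list without any of the 4 words included ORC1, CDC45, FEN1 and POLD1 as well as MCM10, which says only that these letters are not in these windows. The CCAAT box, a word bound by NF-Y and common in promoters of cell cycle genes, was found in 24 of the 40 genes (60%). It was in 39.7% of all genes and 43.2% of those above 1 FPKM. The short words TTTGAA and TTCGAA of the cell cycle homology region, which many genes of mitosis carry, were found in 2 (5%), DBF4 and MCM6. They were in 19.5% of all genes and 15% of those above 1 FPKM.

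Among the 40 genes with a window, those with an E2F word had lower medians than those without in all 4 comparisons with DMSO. The ranges overlapped widely, and the 7 genes without a window are in neither set. The median log2 fold changes of the 21 genes with a word and the 19 without were -1.44 and -0.83 with APO and -1.94 and -1.63 with VER in C4-2B MDVR. In CWR22Rv1 they were -1.25 and -0.64 with APO and -0.80 and -0.67 with VER. The largest reductions were found in both sets, in CLSPN with a word (-4.64 with VER in C4-2B MDVR) and in MCM10 without (-4.44). With APO in C4-2B MDVR the lowest values were -2.65 with a word and -2.43 without. In CWR22Rv1 the order was reversed, at -2.16 with a word and -2.54 without under APO, and -1.19 and -1.39 under VER. ORC3, which holds a word, was at -0.02 with APO in C4-2B MDVR and at 0.35 in CWR22Rv1.

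The origin recognition complex was divided, with strong reductions of ORC1 and, mainly with VER in C4-2B MDVR, of ORC6, and smaller changes of the rest. Its median log2 fold change was -0.61 under APO and -0.57 under VER in C4-2B MDVR, and -0.12 and -0.15 in CWR22Rv1. Its 6 subunits form the platform on which the helicase is loaded, and ORC1 is the subunit whose amount is known to follow the cell cycle. In this and the following paragraphs, levels are given in the order DMSO, APO and VER. ORC1 was 12.7, 4.15 and 1.70 FPKM in C4-2B MDVR and 8.87, 2.00 and 3.48 FPKM in CWR22Rv1. ORC6, the smallest subunit, was 22.3, 12.5 and 3.07 FPKM in C4-2B MDVR and 44.5, 18.8 and 30.0 FPKM in CWR22Rv1. On the log2 scale ORC1 and ORC6 were at -2.83 and -2.82 with VER in C4-2B MDVR. ORC6 was reduced less in the other comparisons, at -0.83 with APO in C4-2B MDVR and at -1.24 with APO and -0.57 with VER in CWR22Rv1.

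The 4 other subunits differed from DMSO by less than 2-fold throughout, and some were higher. ORC2 was 11.3, 7.22 and 7.03 FPKM in C4-2B MDVR and 18.4, 13.3 and 15.3 FPKM in CWR22Rv1. ORC3 read 6.04, 5.95 and 4.57 FPKM and then 8.79, 11.3 and 8.58 FPKM, and in CWR22Rv1 it was higher with APO. ORC4 (chr2:147930397-148021604, minus strand) was 17.8, 22.7 and 19.3 FPKM in C4-2B MDVR and 7.61, 14.7 and 8.34 FPKM in CWR22Rv1. It was the only gene of the 47 that was higher past 1.2-fold with APO in both lines (log2 fold change 0.35 and 0.94), although the first of these came within 1.2-fold when all libraries were scaled to the same sum. ORC5 was 40.3, 26.8 and 29.1 FPKM in C4-2B MDVR, where both inhibitors lay below DMSO, and 29.7, 34.7 and 39.6 FPKM in CWR22Rv1, where both lay above. With VER its change was -0.47 in C4-2B MDVR and 0.42 in CWR22Rv1. The ratio of ORC1 to ORC2 therefore went from 1.13 under DMSO to 0.575 under APO and 0.243 under VER in C4-2B MDVR, and from 0.483 to 0.150 and 0.228 in CWR22Rv1.

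The licensing factors CDC6 and CDT1 and the CDT1 inhibitor geminin were lower in all 4 comparisons. CDC6, the ATPase that recruits the helicase to ORC, was 41.9, 15.2 and 10.6 FPKM in C4-2B MDVR and 22.7, 11.1 and 11.8 FPKM in CWR22Rv1. CDT1 was 31.8, 11.8 and 8.48 FPKM in C4-2B MDVR and 42.9, 18.8 and 24.6 FPKM in CWR22Rv1. GMNN was 48.4, 19.8 and 12.6 FPKM in C4-2B MDVR and 50.1, 38.8 and 35.8 FPKM in CWR22Rv1. In C4-2B MDVR the loader and its inhibitor were reduced alike, with a ratio of CDT1 to GMNN of 0.657, 0.599 and 0.675. In CWR22Rv1 GMNN was reduced less than CDT1, and the ratio was 0.855, 0.486 and 0.687.

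All 6 genes of the MCM2 to MCM7 ring, the core of the helicase, were lower in every comparison with DMSO. Their summed level was 497, 134 and 92.9 FPKM in C4-2B MDVR and 525, 198 and 286 FPKM in CWR22Rv1. MCM4 was 109, 26.0 and 17.0 FPKM in C4-2B MDVR and 114, 25.1 and 69.6 FPKM in CWR22Rv1. MCM2 was 93.3, 21.9 and 15.0 FPKM in C4-2B MDVR and 72.6, 20.6 and 31.7 FPKM in CWR22Rv1. MCM5 was 59.7, 18.8 and 12.9 FPKM and then 63.0, 19.0 and 26.1 FPKM. In these 3 genes VER gave the lowest library in C4-2B MDVR and the middle one in CWR22Rv1.

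MCM7 kept that order, and MCM3 and MCM6 departed from it in C4-2B MDVR. MCM7, the highest of the ring, was 165, 44.3 and 23.4 FPKM in C4-2B MDVR and 201, 109 and 120.1 FPKM in CWR22Rv1, where its log2 fold change with APO (-0.88) was the smallest of the 6. MCM3 was 32.5, 10.2 and 11.5 FPKM in C4-2B MDVR and 44.9, 14.9 and 21.7 FPKM in CWR22Rv1. MCM6, whose promoter stretch is printed above, was 37.9, 12.5 and 13.1 FPKM and then 30.2, 9.46 and 16.3 FPKM. For MCM3 and MCM6 the 2 inhibitors differed by less than 1.2-fold in C4-2B MDVR. The subunits sit in the ring in equal numbers, but their RNA levels did not match, with a ratio of the highest to the lowest of 5.07 under DMSO, 4.34 under APO and 2.04 under VER in C4-2B MDVR and of 6.64, 11.5 and 7.39 in CWR22Rv1.

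The genes that activate the helicase included some of the largest reductions. MCM10 (chr10:13161554-13211104, plus strand, GENCODE 29 on GRCh38), which binds the activated helicase and helps it unwind DNA, was 18.7, 3.40 and 0.768 FPKM in C4-2B MDVR and 17.8, 2.99 and 6.73 FPKM in CWR22Rv1. It was 21.7-fold lower with VER in C4-2B MDVR, the rank 65 from the bottom among 20122 genes, and 5.38-fold lower with APO. In CWR22Rv1 it was 5.80-fold lower with APO and 2.62-fold with VER. It was reduced more than any gene of the ring in all 4 comparisons. The ratio of MCM10 to MCM2 was 0.200, 0.155 and 0.0511 in C4-2B MDVR and 0.245, 0.145 and 0.212 in CWR22Rv1.

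CDC45 and the 4 GINS subunits, which join the ring to form the moving helicase, were lower in all 4 comparisons. CDC45 was 27.0, 10.2 and 3.50 FPKM in C4-2B MDVR and 43.6, 19.7 and 29.6 FPKM in CWR22Rv1. GINS1 was 56.3, 17.5 and 7.66 FPKM and then 29.0, 10.5 and 14.5 FPKM. GINS2 was 13.8, 4.52 and 2.57 FPKM and then 23.6, 5.71 and 12.6 FPKM. These 3 genes ran from DMSO over APO down to VER in C4-2B MDVR, and in CWR22Rv1 VER lay between DMSO and APO. GINS3 was 10.8, 3.93 and 2.36 FPKM in C4-2B MDVR and 21.8, 9.07 and 10.9 FPKM in CWR22Rv1. GINS4 was 24.9, 9.93 and 4.86 FPKM and then 20.6, 5.11 and 8.20 FPKM. In C4-2B MDVR all 5 genes were thus lowest with VER, and in CWR22Rv1 all 5 were lowest with APO.

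CDC7 and DBF4 form the kinase that fires licensed origins. CDC7, the catalytic subunit, was 18.7, 6.82 and 4.09 FPKM in C4-2B MDVR and 12.9, 6.41 and 7.96 FPKM in CWR22Rv1. DBF4, its activator, was 16.9, 9.00 and 3.61 FPKM in C4-2B MDVR and 19.2, 15.9 and 12.0 FPKM in CWR22Rv1. DBF4 was thus lowest with VER in both lines, and its change with APO in CWR22Rv1 (-0.27) lay at the threshold.

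**Figure D2:**
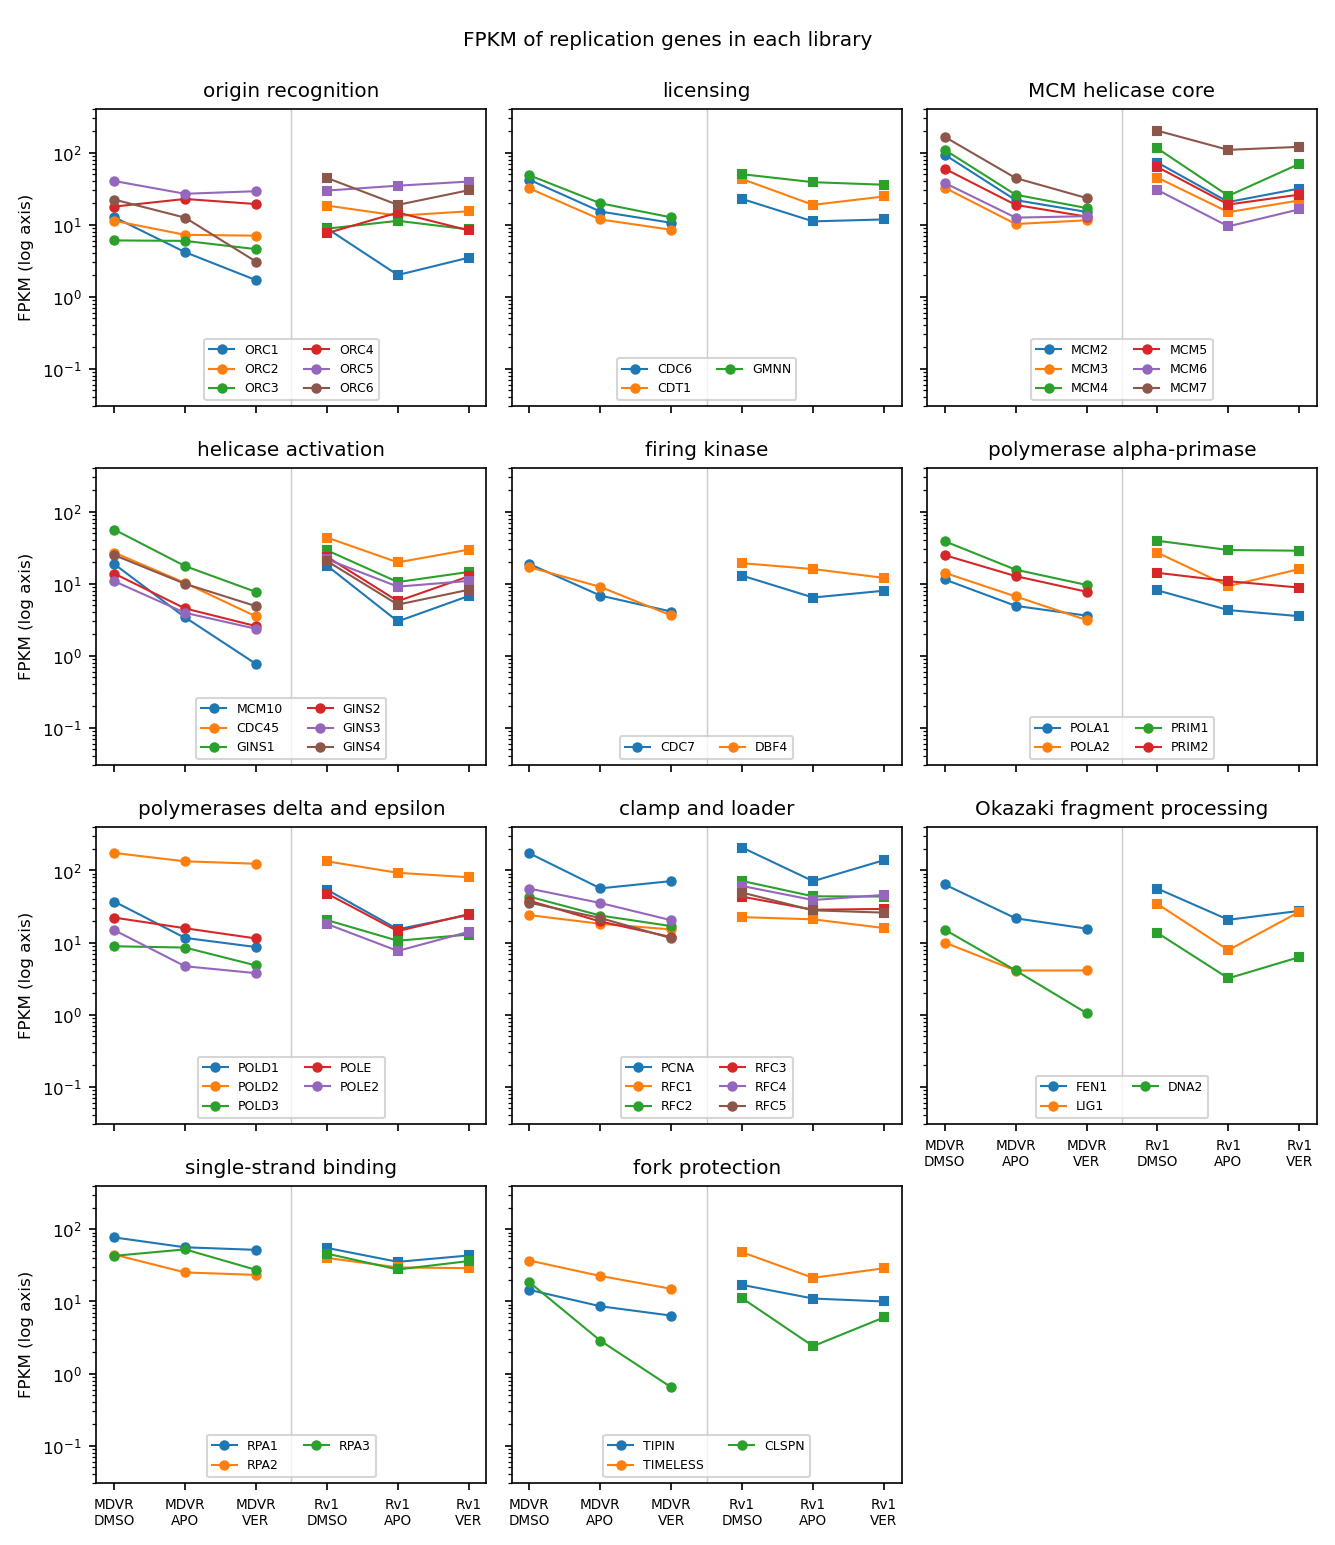
FPKM of the replication genes in each of the 6 libraries (vertical log axis), 1 panel per role group and 1 line per gene, with C4-2B MDVR (MDVR) on the left and CWR22Rv1 (Rv1) on the right of each panel. Most lines descend from DMSO over APO to VER in C4-2B MDVR and many turn up again from APO to VER in CWR22Rv1, with MCM10 and CLSPN reaching 0.768 and 0.645 FPKM in the C4-2B MDVR VER library.

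Polymerase alpha with its primase lays the primers from which the other polymerases extend, and its 4 genes were lower in all 4 comparisons. POLA2, the regulatory subunit, was 14.1, 6.63 and 3.12 FPKM in C4-2B MDVR and 26.8, 9.25 and 15.9 FPKM in CWR22Rv1. POLA1, the catalytic subunit, was 11.4, 4.91 and 3.59 FPKM and then 8.06, 4.29 and 3.53 FPKM. PRIM2, the large primase subunit, was 24.8, 12.7 and 7.71 FPKM and then 14.1, 10.8 and 8.80 FPKM. The small primase subunit PRIM1 was the highest of the group, at 38.7, 15.6 and 9.58 FPKM and then 39.3, 29.2 and 28.6 FPKM. In CWR22Rv1 POLA2 alone of the 4 was lower past 2-fold with APO and POLA1 alone with VER. PRIM1 shares 1.35% of its exonic bases with NACA on the same strand, a gene at 640.5 to 1161 FPKM in these libraries, and its part in the PRIM1 values was not tested.

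Polymerases delta and epsilon copy the lagging and the leading strand, and their subunits did not respond alike. POLD1, the catalytic subunit of polymerase delta, was 37.1, 11.6 and 8.66 FPKM in C4-2B MDVR and 54.2, 15.3 and 24.1 FPKM in CWR22Rv1. POLD2, which links the subunits of the same enzyme, was 175, 134 and 124 FPKM and then 134, 92.8 and 80.6 FPKM. POLD3 was 8.88, 8.52 and 4.81 FPKM and then 20.5, 10.6 and 12.9 FPKM, so with APO it was lower in CWR22Rv1 (-0.95) and within 1.2-fold in C4-2B MDVR (-0.06). POLD2 was the highest of the 47 genes in all 3 C4-2B MDVR libraries, and no reduction of it passed 2-fold. POLD3 shares 2.23% of its exonic bases on the same strand with AP001372.2, at 1.38 to 6.54 FPKM, and POLD1 shares 8.64% with AC020909.1, at no more than 0.0493 FPKM. The part of these genes in the values was not tested.

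The catalytic subunit of polymerase epsilon differed between the lines in its response to APO. This gene, POLE, was 22.2, 15.8 and 11.4 FPKM in C4-2B MDVR and 47.9, 14.4 and 24.8 FPKM in CWR22Rv1. Its log2 fold change with APO was -0.49 in the first line and -1.72 in the second. POLE2, its second subunit, was 14.9, 4.69 and 3.76 FPKM in C4-2B MDVR and 18.1, 7.65 and 14.1 FPKM in CWR22Rv1, and its reduction with VER in CWR22Rv1 (-0.35) was the smallest of the 5 polymerase delta and epsilon genes there.

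PCNA, the sliding clamp that tethers the polymerases, was reduced more than its loader by APO. It was 173, 56.5 and 71.2 FPKM in C4-2B MDVR and 208, 71.1 and 139 FPKM in CWR22Rv1. In both lines its lowest library was that with APO, and in C4-2B MDVR it was the only one of the 47 genes that was higher past 1.2-fold with VER than with APO. The 5 subunits of the clamp loader RFC had smaller reductions than PCNA with APO in both lines. RFC1, the large subunit, was 24.0, 18.2 and 15.2 FPKM and then 22.5, 21.0 and 15.9 FPKM, and lay within 1.2-fold of DMSO with APO in CWR22Rv1. RFC5 was 35.7, 21.9 and 11.5 FPKM and then 49.3, 28.0 and 26.0 FPKM. RFC3 was 37.9, 19.6 and 11.9 FPKM and then 43.3, 28.5 and 29.3 FPKM. Both RFC3 and RFC5 were lowest with VER in C4-2B MDVR, with the 2 inhibitors within 1.2-fold of each other in CWR22Rv1. RFC2 was 43.3, 23.7 and 16.9 FPKM and then 71.5, 43.8 and 43.5 FPKM, and RFC4 was 56.0, 35.4 and 20.4 FPKM and then 60.9, 38.9 and 45.8 FPKM. RFC2, RFC3 and RFC4 had log2 fold changes of -0.87, -0.95 and -0.66 with APO and -1.35, -1.66 and -1.45 with VER in C4-2B MDVR. In CWR22Rv1 these were -0.70, -0.60 and -0.64 with APO and -0.71, -0.56 and -0.41 with VER. None of the loader genes passed 2-fold in CWR22Rv1 with either inhibitor.

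The enzymes that trim and join Okazaki fragments, the short pieces of the lagging strand, were lower in all 4 comparisons. DNA2 (chr10:68414064-68472121, minus strand), a nuclease and helicase, was 15.1, 4.10 and 1.05 FPKM in C4-2B MDVR and 13.6, 3.19 and 6.28 FPKM in CWR22Rv1. It was 13.2-fold lower with VER in C4-2B MDVR. FEN1, the flap endonuclease, was 63.9, 21.7 and 15.6 FPKM and then 56.0, 20.7 and 27.5 FPKM. FEN1 shares 1.98% of its exonic bases with FADS2 on the same strand, which ranged from 6.72 to 441 FPKM, and the part of those reads was not tested. LIG1, the ligase that seals the nicks, was 10.0, 4.09 and 4.10 FPKM in C4-2B MDVR and 34.2, 7.85 and 26.7 FPKM in CWR22Rv1. LIG1 was equal under both inhibitors in C4-2B MDVR, whereas in CWR22Rv1 its log2 fold change was -2.11 with APO and -0.35 with VER.

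RPA coats the single strands that the helicase exposes, and its 3 genes had small changes. RPA1, the large subunit, was 77.5, 56.5 and 52.1 FPKM in C4-2B MDVR and 55.4, 35.5 and 43.5 FPKM in CWR22Rv1. RPA2 was 44.8, 25.3 and 23.4 FPKM and then 40.3, 29.7 and 29.0 FPKM. RPA3 was 43.0, 52.9 and 27.5 FPKM in C4-2B MDVR and 46.2, 27.8 and 36.4 FPKM in CWR22Rv1. With APO, RPA3 was therefore higher in C4-2B MDVR (0.30) and lower in CWR22Rv1 (-0.73), although the first came within 1.2-fold when all libraries were scaled to the same sum. No RPA gene was lower past 2-fold in any comparison with DMSO.

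The fork protection genes held the largest reduction of the list, that of CLSPN with VER in C4-2B MDVR. In CWR22Rv1 the largest was that of MCM10, with APO (-2.54) and with VER (-1.39). CLSPN encodes claspin, which carries the checkpoint signal from stalled forks to the kinase CHK1, and TIMELESS and TIPIN form the complex that travels with the fork and steadies it. CLSPN (chr1:35720218-35769967, minus strand) was 18.5, 2.86 and 0.645 FPKM in C4-2B MDVR and 11.1, 2.40 and 6.02 FPKM in CWR22Rv1. It was 25.0-fold lower with VER in C4-2B MDVR, rank 52 from the bottom among 20122 genes, and 1.83-fold lower with VER in CWR22Rv1. TIMELESS was 37.0, 22.6 and 15.0 FPKM and then 48.2, 21.3 and 28.9 FPKM. TIPIN was 14.5, 8.59 and 6.37 FPKM and then 17.0, 11.0 and 10.0 FPKM, and 21.0% of its exonic bases lie also in RPL9P25, at no more than 0.302 FPKM. The ratio of CLSPN to TIMELESS went from 0.500 under DMSO to 0.127 under APO and 0.0430 under VER in C4-2B MDVR, and from 0.230 to 0.112 and 0.208 in CWR22Rv1.

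Set directly against each other at 1.2-fold, the 2 inhibitors leaned in opposite directions in the 2 lines. In C4-2B MDVR, 37 of the 47 genes were lower with VER than with APO and 1 (PCNA) was higher, against 32.5% lower and 28.5% higher of all genes, and 10 were lower past 2-fold, against 10.5%. In CWR22Rv1, 6 genes were lower and 28 higher with VER than with APO, against 34.5% and 37.3% of all genes. Past 2-fold, 5 of the 47 (MCM4, MCM10, GINS2, LIG1 and CLSPN) were higher, a smaller share than the 15.6% of all genes. The medians were -0.59 and 0.38. Scaled to the same sum per library, the counts in CWR22Rv1 were 10 lower and 20 higher. The median was then 0.20, which is within 1.2-fold, and that over all genes compared was -0.13.

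A count chosen after the values were seen was that of genes lower with VER than with APO in C4-2B MDVR and higher in CWR22Rv1, both past 1.2-fold. It held 23 of the 47 genes, against 8.83% of the 18059 genes compared in both lines, and the reverse pattern held 0 of the 47, against 5.7%. The count was 15 when the libraries were scaled to the same sum and 10 at a threshold of 1.5-fold. The share of all genes is not given for these alternatives, so the 8.83% does not apply to them. The 23 included all 5 CDC45 and GINS genes, MCM10, ORC1, ORC6, DNA2 and CLSPN, but neither MCM3, MCM6 and MCM7 nor any loader gene. The CWR22Rv1 APO library also stood apart in the share of FPKM from the mitochondrial chromosome, which was 10.4%, against 25.7% with DMSO and with VER, and between 14.8% and 16.4% in the C4-2B MDVR libraries. Without these genes in the scale, 31 genes were higher and 4 lower with VER than with APO in CWR22Rv1. The median was then 0.47, against 0.07 over all genes compared.

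**Figure D3:**
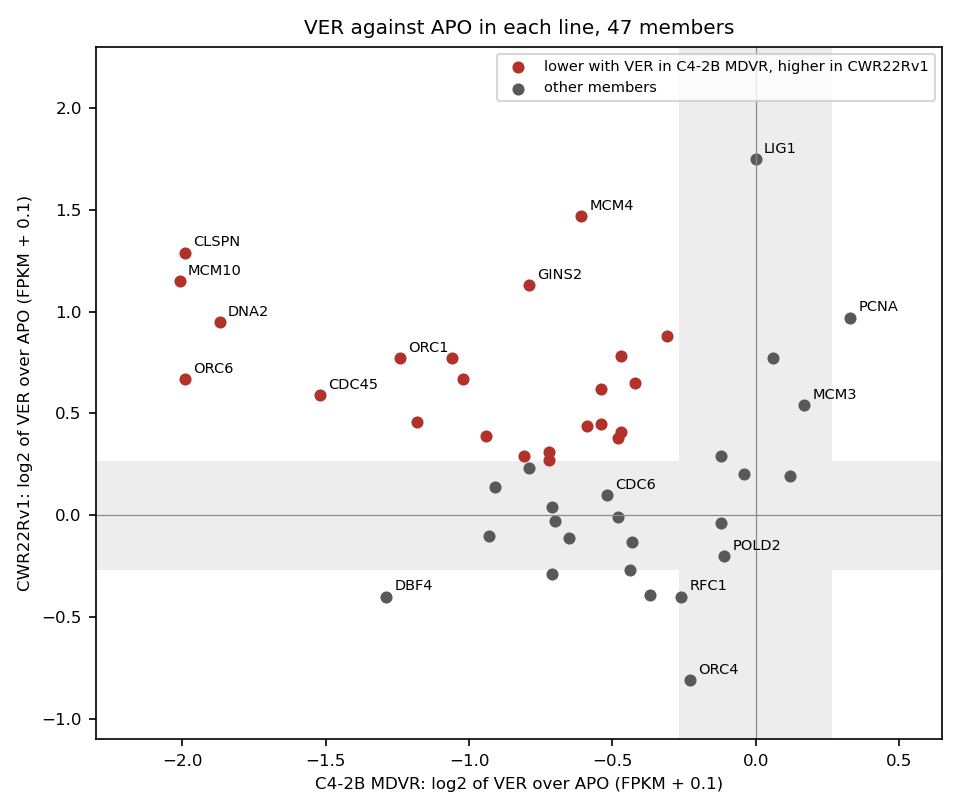
Log2 of VER over APO (FPKM + 0.1) of each of the 47 genes in C4-2B MDVR (horizontal axis) and in CWR22Rv1 (vertical axis), with grey bands for differences within 1.2-fold. The 23 red points are lower with VER in C4-2B MDVR and higher in CWR22Rv1, with CLSPN, MCM10 and DNA2 among those farthest out, and the lower right corner is empty.

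Without inhibitor the middle of the list lay at a similar level in the 2 lines, while most single genes differed past 1.2-fold, in both directions. With DMSO, 14 of the 47 genes were lower and 19 higher in CWR22Rv1 than in C4-2B MDVR, with a median log2 difference of 0.10, while 39.2% of 20903 genes were lower and 43.2% higher. Past 2-fold 1 gene was lower, against 19.4% of all genes, and 4 were higher, against 27.2%. The gene that was lower was ORC4 (-1.21). LIG1 was the highest in CWR22Rv1 relative to C4-2B MDVR (1.76), followed by POLD3, POLE (1.11) and GINS3 (1.01). GINS1 (-0.95) and CDC6 (-0.88) were lower in CWR22Rv1, as were ORC1 and ORC5 (-0.51 and -0.44). With mitochondrial genes left out of the scale the counts were 10 lower and 22 higher. The median was then 0.23, against 0.18 over all genes compared.

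**Figure D4:**
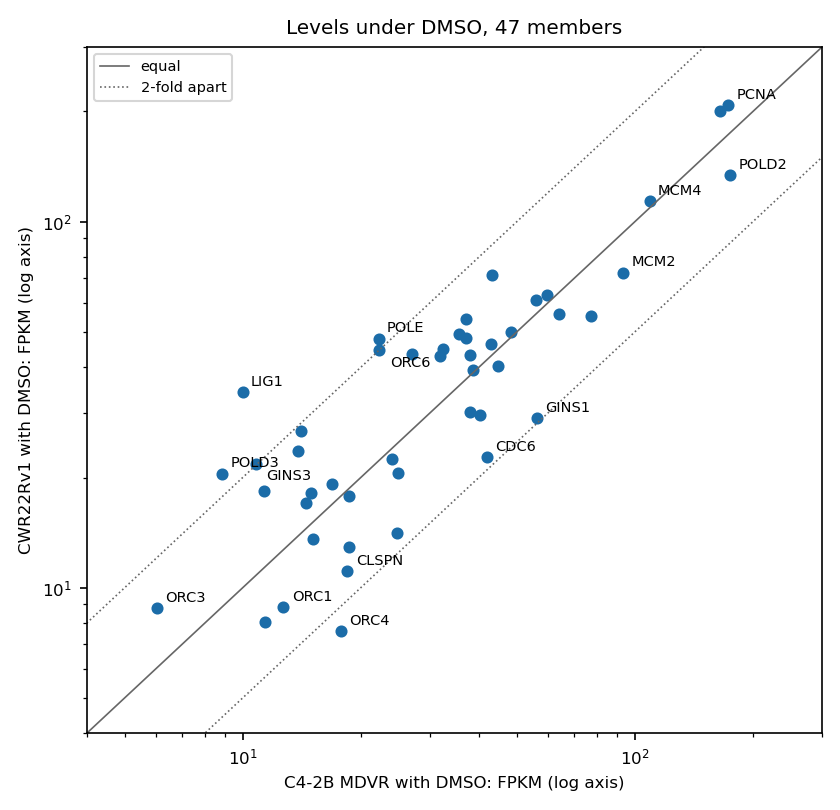
FPKM of the 47 genes with DMSO in C4-2B MDVR (horizontal log axis) and in CWR22Rv1 (vertical log axis), with a solid line for equal levels and dotted lines for levels 2-fold apart. Most points lie between the dotted lines, LIG1 lies above them at 10.0 and 34.2 FPKM, and ORC4 lies below them at 17.8 and 7.61 FPKM.

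Beyond the 47 genes, 57 others of replication, its checkpoint and its chromatin were read from 5 lists. Of these, 43 were lower and 4 higher with APO and 44 lower and 2 higher with VER in C4-2B MDVR, and 39 and 6 with APO and 43 and 2 with VER in CWR22Rv1. In the same comparisons 35.4%, 34.9%, 39.2% and 32.3% of all genes were lower, as given above. The medians of the 57 genes were -0.85, -1.14, -0.74 and -0.51 in that order. In the list of other initiation genes, 11 of 12 were lower with VER in C4-2B MDVR and 0 higher, from TICRR, a factor that helps load CDC45, at 9.23 FPKM with DMSO and 0.431 FPKM with VER (-4.13), to MCM9 (0.23). In the list of other fork and polymerase genes 13 of 18 were lower and 1 higher. The helicase PIF1 was at 8.70, 3.79 and 0.238 FPKM in C4-2B MDVR and 17.3, 4.61 and 4.80 FPKM in CWR22Rv1. The gene that was higher was POLD4, the smallest subunit of polymerase delta, at 39.2, 64.4 and 84.5 FPKM in C4-2B MDVR and 17.5, 52.1 and 32.7 FPKM in CWR22Rv1. POLD4 thus stood opposite to its partner POLD1 in all 4 comparisons.

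The counts of the 3 remaining lists are again for VER in C4-2B MDVR, where 34.9% of all genes were lower and 35.6% higher. In replication-coupled chromatin 8 of 9 genes were lower, with UHRF1, which directs the methylation of new DNA, at 21.1, 2.21 and 1.32 FPKM and then 24.9, 2.98 and 7.25 FPKM. ASF1A, a histone chaperone, was at the other end of that list (-0.11). Among checkpoint genes 6 of 10 were lower and 1 higher, between the phosphatase CDC25A (-2.19) and RAD17 (0.41), which loads the checkpoint clamp. Among genes of licensing factor turnover and S-phase kinases 6 of 8 were lower and 0 higher, between cyclin A2 (CCNA2, -4.03) and DDB1 (0.03).

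The libraries carried the markers of their labelled tissue. All 8 markers of prostate luminal epithelium were above 1 FPKM in all 6 libraries, with sums of 979 to 1367 FPKM. Fibroblast markers summed to 7.34 to 32.1 FPKM, mostly COL1A1 in C4-2B MDVR and LUM in CWR22Rv1, and leukocyte markers to 0.0571 to 1.64 FPKM, with PTPRC at 0 in 5 of the 6 libraries. The tables give no read totals, and the depth read from their low values was highest with APO in C4-2B MDVR, at 1.67 times that of the DMSO library of this line, which was the shallowest. Of the 47 genes, 7 have a pseudogene named after them, none of which was above 0.159 FPKM. A gene on the opposite strand overlaps 21 of the 47, and the sources used here do not say whether strand was used in counting.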

How the data were processed

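RNA-seq was done on both lines under DMSO, APO or VER, with 1 library per condition, and libraries were assigned to conditions by their titles. Per the labels, poly-A RNA was prepared with a stranded kit, while the paper names another kit. The authors aligned paired-end reads with HISAT to GRCh38, quantified genes with Cufflinks and deposited FPKM values normalized between libraries with Cuffnorm. The annotation release is not given in the sources used here. FPKM values are not counts and carry no read totals, so no count test and no interval was made.

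Identifiers were matched to GENCODE 29, where 57047 of 60658 had a symbol. Differences of log2(FPKM + 0.1) were taken for genes that passed 0.1 FPKM in any of a line's 3 libraries, or in either DMSO library for the comparison between lines (20903 genes). Counts use 1.2-fold and 2-fold. The share of all genes past the same threshold is given for scale and is not a test. The genes compared include low ones, since 14336 of the 20122 in C4-2B MDVR passed 1 FPKM in any of its libraries. The members, the role groups, the other gene lists and the motifs were chosen with earlier results of these data known. All 47 members are named with their values in every library, where the rule asked for at least those with the largest and smallest change of each role group and those opposite in the 2 lines under 1 inhibitor. For the other lists the genes at both ends with VER in C4-2B MDVR are named. Promoter windows come from RefSeq on GRCh38.p14, where 40 members matched by symbol, and words were matched exactly. The relative depth was read from ratios of FPKM values between 0.001 and 0.05. Alternatives were pseudocounts of 0.01 and 1, other filters, other scalings of the libraries and a threshold of 1.5-fold. The functions were tested on simulated data. Python 3.11.15, pandas 2.3.3, numpy 2.4.6 and matplotlib 3.10.9 were used.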

Additional observations from a re-analysis of the deposited data

Results flagged for a closer look

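The genes below were singled out because they lay past 1.2-fold in opposite directions in the 2 lines under the same comparison. Each value is the log2 fold change in CWR22Rv1 minus that in C4-2B MDVR. With 1 library per condition the differences were not tested. With APO against DMSO this was RPA3, with a difference of -1.03, and with VER against DMSO it was ORC5, with a difference of 0.88. Over all 18059 genes compared in both lines, 13.2% differed in direction with APO and 11.5% with VER.

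With VER against APO, 23 genes differed in direction, all of them lower with VER in C4-2B MDVR and higher in CWR22Rv1, while 14.5% of all genes differed in direction either way. Among origin recognition and licensing genes the differences were 2.01 for ORC1, 2.66 for ORC6 and 0.86 for CDT1. In the helicase ring they were 1.17 for MCM2, 2.08 for MCM4 and 0.99 for MCM5. Among the genes that activate the helicase and fire origins they were 3.16 for MCM10, 2.11 for CDC45, 1.64 for GINS1, 1.92 for GINS2, 0.98 for GINS3, 1.69 for GINS4 and 1.03 for CDC7. For the polymerases they were 1.84 for POLA2, 1.07 for POLD1, 1.10 for POLD3, 1.25 for POLE and 1.19 for POLE2. Among the genes of Okazaki fragments, single strands and fork protection they were 0.88 for FEN1, 2.82 for DNA2, 1.33 for RPA3, 1.03 for TIMELESS and 3.29 for CLSPN. CLSPN, MCM10 and DNA2 had the largest differences of the 23.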

How the results depend on the processing

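Of 170 recomputed counts and medians, 152 were labelled the same as those reported and 18 moved. A count was labelled moved when it differed by more than 1.5 times from that reported, and a median when it crossed 1.2-fold. Of the medians among them 0 changed direction, while a count has no direction to change. The numbers of genes lower than DMSO stayed within 1.5 times of those reported under every alternative run. This label is wide, since with VER in CWR22Rv1 the number went from 44 to 30 at a threshold of 1.5-fold. Shares of all genes are given at the reported settings only, not for the alternatives. With the libraries scaled to the same sum (TPM), 0 genes were higher with APO in C4-2B MDVR. Of VER against APO, 3 were higher in C4-2B MDVR, and in CWR22Rv1 10 were lower with a median of 0.20. The genes opposite in the 2 lines were 15 in place of 23. Under this scaling the median of genes above 1 FPKM was -0.12 in place of 0.02 with APO in C4-2B MDVR and 0.10 in place of -0.01 in CWR22Rv1. With VER against APO it was 0.11 in place of -0.03 and -0.20 in place of -0.02. With the same sum and mitochondrial genes left out, 0 genes were higher with APO in C4-2B MDVR and 1 in CWR22Rv1, and 3 were higher with VER than APO in C4-2B MDVR. At 1.5-fold, 0 genes were higher with APO in C4-2B MDVR, 1 with APO in CWR22Rv1 and 0 with VER in CWR22Rv1. For VER against APO this stricter threshold left 24 lower and 0 higher in C4-2B MDVR and 1 lower and 17 higher in CWR22Rv1. Between the lines it left 5 lower and 10 higher, and 10 genes opposite in the 2 lines, fewer by construction. The alternatives of the opposite count were chosen after seeing the data. Of 2303 recomputed changes of single genes, 2237 stayed on the same side of 1.2-fold, 66 crossed it and 0 changed sign past the threshold. No paired analysis was possible because each comparison within a line is between 2 single libraries, and no replicate could be left out. A model over both lines with the line as a block was not run, since it would take the lines as replicates and average over them. FPKM without read totals sets no counting error, so small differences, such as those near 1.2-fold, cannot be told from sampling.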
